A study of Homo sapiens with 14 samples.

Results

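The distal common BAF regions are the places away from gene starts where the BAF chromatin remodelling complex was found in both naïve and primed human embryonic stem cells (hESCs). They were chosen by the peak lists of 2 subunits, BRG1 (SMARCA4, the ATPase) and BAF155 (SMARCC1, a scaffold). Peaks of both subunits were merged within a state, naïve and primed regions were joined where at least 25% of either was covered, and the midpoint had to lie more than 1 kb from every annotated transcript start. This selected 13256 regions on chromosomes 1 to 22 and X, which is 12.5% of all 106393 BAF regions and 47.8% of the 27753 common ones. The remaining common regions, 14497 in number, were promoter regions, and 41674 naïve-only and 25895 primed-only regions were distal.

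All samples were WIBR3 cells, an established hESC line. Naïve cells were grown in 5i/L/A medium and primed cells in conventional hESC medium, both on mouse feeder cells and with no genetic change given in the labels. Binding was mapped by ChIP-seq, the sequencing of DNA recovered with an antibody, for BRG1, BAF155, BRM (SMARCA2) and SOX2 in each state, with 1 library per antibody and state except for SOX2, for which 2 were labelled. Within a state the coordinates of both SOX2 lists were identical, and they were counted as 1 sample. No value below therefore has a replicate error, no p-value is given, and the 95% intervals cover counting error within these libraries only. The BAF subunit libraries of a state shared 1 input library as control.

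BAF, also called mammalian SWI/SNF, uses ATP to slide or evict nucleosomes, and each complex carries either BRG1 or its paralog BRM as motor. The complex has little sequence preference of its own and is brought to enhancers by transcription factors. SOX2 binds together with OCT4 at composite DNA elements in pluripotent cells. REST is a zinc finger repressor of neuronal genes outside neurons that binds a long element called RE1, and CTCF is an insulator protein. Neither REST, CTCF nor OCT4 was among the factors analysed here.

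The sequences below come from members of high peak fold and show the elements that the later paragraphs count. Fold is the authors' enrichment of a peak over its input. The first 3 are from the 4 members of highest naïve BRM fold among those with an RE1 match in their central 200 bp. The match is in capitals (hg38, plus strand). The match near DPP6 reads on the minus strand.
MED27, chr9:132114247-132114326: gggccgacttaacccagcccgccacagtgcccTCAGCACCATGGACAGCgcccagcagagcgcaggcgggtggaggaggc
DPP6, chr7:154055667-154055746: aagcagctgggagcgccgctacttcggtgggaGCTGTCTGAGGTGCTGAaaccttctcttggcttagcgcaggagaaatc
PRR23E, chr3:127233512-127233591: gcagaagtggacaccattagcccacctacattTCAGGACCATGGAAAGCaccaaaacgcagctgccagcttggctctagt

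The next is a member of high naïve BRM fold, the fourth highest, that held a CTCF match (capitals). It also holds a stretch that meets the RE1 definition given below (tcagaacctaggacagc, in lower case). That stretch lies outside the central 200 bp searched, so this member was not counted among those with an RE1 match.
KBTBD8, chr3:67113957-67114076: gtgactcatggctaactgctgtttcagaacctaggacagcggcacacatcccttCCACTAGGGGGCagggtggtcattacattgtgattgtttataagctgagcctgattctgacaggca

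The last 4 are members among the highest naïve or primed SOX2 folds, with a match to the OCT4-SOX2 composite element in capitals.
ETV6, chr12:11609159-11609278: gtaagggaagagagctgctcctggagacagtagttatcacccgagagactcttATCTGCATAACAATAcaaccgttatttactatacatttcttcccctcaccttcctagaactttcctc
MAST2, chr1:46043900-46044019: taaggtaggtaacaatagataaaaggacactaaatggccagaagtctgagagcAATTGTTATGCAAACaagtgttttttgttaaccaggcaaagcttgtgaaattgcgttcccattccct
KLF13, chr15:31306650-31306769: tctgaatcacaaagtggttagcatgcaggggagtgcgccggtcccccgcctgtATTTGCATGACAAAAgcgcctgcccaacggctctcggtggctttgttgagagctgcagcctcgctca
ARHGEF38, chr4:105555412-105555531: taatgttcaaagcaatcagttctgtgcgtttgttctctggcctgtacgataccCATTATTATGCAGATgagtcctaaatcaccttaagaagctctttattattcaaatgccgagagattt

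The lists that chose the members are described first, with no test. Primed BAF155 supported 99.7% of members and primed BRG1 32.5%, whereas naïve BAF155 supported 86.3% and naïve BRG1 84.3%. Of the 13256 members, 3492 (26.3%) had peaks of all 4 lists, 50.2% of 3 lists and 23.5% of 2 lists. The most frequent pattern, in 5848 members, was every list but primed BRG1. The primed BRG1 list held 15611 peaks, against 58352 for primed BAF155, 57853 for naïve BRG1 and 62338 for naïve BAF155. Its lower share therefore cannot be told apart from an effect of its shorter list. The median fold of the member peaks was 3.04 for naïve BRG1, 2.99 for naïve BAF155, 3.74 for primed BRG1 and 3.51 for primed BAF155, each slightly above the median of its whole list. Nearly all members (96.8%) joined exactly 1 naïve and 1 primed region. The members just inside the distance limit lay 1001 bp from a start, the common regions just outside it 1000 bp, and 169 and 198 regions lay within 100 bp of the limit on either side. The overlap limit lay between pairs of regions sharing 24.9% and 25%.

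The distal common BAF regions were wider than state-specific ones and narrower than common promoter regions. Their median width was 805 bp, against 415 bp for distal naïve-only, 362 bp for distal primed-only and 1414 bp for promoter common regions. Merging overlapping regions of 2 states widens a common region by construction. Introns held 54.4% of members, intergenic sequence 39.0% and exons 6.62%, and the median distance to a start was 9.37 kb. The GC content of the central 200 bp had a median of 49.5%, far from the 68.0% of common promoter regions. The density of members ranged from 2.63 per Mb on chromosome 21 to 9.98 per Mb on chromosome 19. Of the members, 26.8% had another member within 12.5 kb, compared with 56.4% of distal naïve-only regions and 35.1% of distal primed-only regions that had another of their own class, classes that are also more numerous. The largest group held 8 members over 36.7 kb at PLXND1, a semaphorin receptor gene.

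BRM and SOX2 lists played no part in choosing the members. In naïve cells, 4532 members (34.2%, interval 33.4 to 35.0%) carried a BRM peak, against 14.9% of all BAF regions. The share was 14.2% at distal naïve-only regions, an odds ratio of 3.15 (3.01 to 3.29) in favour of the members, and 1.70 (1.62 to 1.79) when regions were compared within 10 groups of like width. At promoter common regions it was 30.0%, and the odds ratio was 1.21 (1.15 to 1.28). A primed BRM peak lay at 10 members, against 0.0385% of all BAF regions, too few to compare. The naïve BRM list was called against the same naïve input as the lists that chose the members.

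SOX2 peaks were likewise found at more distal common regions than at other classes before width was taken into account. A naïve SOX2 peak lay at 977 members (7.37%, 6.93 to 7.83%), against 1.71% of all BAF regions and 1.41% of distal naïve-only regions. The odds ratio was 5.58 (5.03 to 6.19), and 2.76 (2.47 to 3.09) within width groups. A primed SOX2 peak lay at 2860 members (21.6%, 20.9 to 22.3%), against 7.68% of all BAF regions. The share at distal primed-only regions was 14.1%, an odds ratio of 1.67 (1.58 to 1.77) that turned to 0.744 (0.698 to 0.793) within width groups. With every region set to 500 bp around its midpoint it was 1.32 (1.24 to 1.40), so the direction depended on how width was handled. With −log10 q of at least 3 required of every peak, this odds ratio was 1.03 (0.954 to 1.11). Absence from a list means only that the authors' threshold was not reached, and a factor bound in fewer cells cannot be told apart from one bound more weakly in each.

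**Figure D1:**
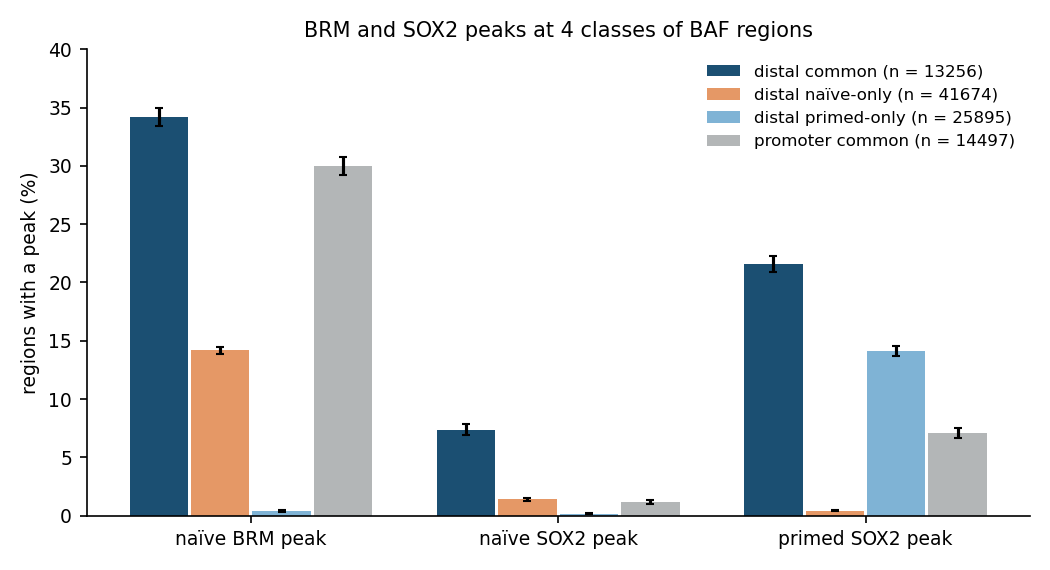
Share of regions (y axis, %) with a naïve BRM, naïve SOX2 or primed SOX2 peak in 4 classes of BAF regions; bars are shares and error bars exact 95% binomial intervals from 1 library per list. Distal common regions had the highest share for each list, 34.2%, 7.37% and 21.6%, before any allowance for their width.

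The members took a large part of the SOX2 lists. They held 1003 naïve SOX2 peaks, 51.7% of that list, and 3011 primed SOX2 peaks, 32.4% of the primed list. The naïve SOX2 peaks inside members had a median fold of 7.63 (7.43 to 7.86), against 6.93 (6.69 to 7.06) inside distal naïve-only regions. Inside promoter common regions it was 7.55 (7.07 to 8.17), an interval that overlaps that of the members. For primed SOX2 the medians were 7.32 (7.19 to 7.47) in members and 6.89 (6.74 to 6.94) in distal primed-only regions. In promoter common regions the primed median was 6.46 (6.30 to 6.67). BRM peaks differed little, with medians of 3.33 in members and 3.28 in distal naïve-only regions.

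SOX2 binding split the members into 4 sets. SOX2 peaks of both states lay at 738 members (5.57%), a naïve peak alone at 239 (1.80%), a primed peak alone at 2122 (16.0%) and no SOX2 peak at 10157 (76.6%). Thus 75.5% of members with naïve SOX2 also had primed SOX2, and 25.8% of members with primed SOX2 also had naïve SOX2. Among members without primed SOX2, 239 of 10396 had naïve SOX2, an odds ratio of 14.8 (12.7 to 17.2), or 10.7 (9.12 to 12.5) within width groups. The naïve SOX2 list held 1940 peaks and the primed list 9290. With the primed list cut to its 1940 peaks of best q-value, 860 members had primed SOX2, and 389 of these had naïve SOX2 too. The shares with SOX2 in both states thus depended on list length. All other values here are from the full lists. Where both states had a peak, the summits lay close together, at a median distance of 33 bp, and 516 of 738 pairs (69.9%) were within 50 bp. The share with naïve SOX2 was 12.8% in the lowest of 5 equal groups of primed SOX2 members by primed fold and 49.1% in the highest. The median primed fold was 9.82 where both states had SOX2 and 6.94 where primed SOX2 was alone.

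Among the 5 members of highest fold for each SOX2 list, both states were usually represented. In the whole highest group by primed fold, 281 of 572 members (49.1%) had naïve SOX2. The 5 members of highest naïve SOX2 fold, which lay nearest ETV6 (42.2), MAST2 (29.3), DPPA5 (27.5), ZNF483 (27.2) and NLGN1 (27.0), all had a primed SOX2 peak too. Of the 5 of highest primed SOX2 fold, nearest FGFR1 (39.5), KLF13 (35.5), ARHGEF38 (32.0), PIM1 (30.4) and NTN1 (29.4), all but the NTN1 member had naïve SOX2. Naïve BRM was called at all 5 of the latter and at 3 of the former, the exceptions being ZNF483 and NLGN1. FGFR1 encodes an FGF receptor and ETV6 an ETS family repressor. The member near FGFR1 is intronic (chr8:38439203-38443611, 4409 bp) and lay 10.6 kb from the nearest protein-coding start.

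Naïve BRM peaks were called more often at members with naïve SOX2, but with lower fold. A BRM peak was present at 56.3% of members with naïve SOX2 and at 32.4% of those without, an odds ratio of 2.68 (2.35 to 3.06), or 2.24 (1.95 to 2.58) within width groups. BRM was also at 46.1% of members with peaks of both naïve BAF lists and at 5.62% of those with 1. Naïve BRG1 lay at 97.6% of members with SOX2 in both states and 97.5% with naïve SOX2 alone. It lay at 84.4% with primed SOX2 alone and 83.0% with no SOX2. No allowance was made for this difference in naïve BAF peaks. By set, the BRM share was 55.7% with SOX2 in both states, 58.2% with naïve SOX2 alone, 33.9% with no SOX2 and 25.6% with primed SOX2 alone. Members with primed SOX2 alone thus had naïve BRM less often than members with no SOX2 (odds ratio 0.672, 0.604 to 0.747). With against without primed SOX2 as a whole, the odds ratio was 0.954 (0.874 to 1.04), and its direction changed with the processing. The BRM peaks at members with SOX2 in both states had a median fold of 3.10 (3.05 to 3.14), against 3.45 (3.42 to 3.48) at members with no SOX2. These folds were not compared within width groups or without RE1 members. The median width was 1338 bp with SOX2 in both states and 712 bp with no SOX2.

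The relation also depended on the peak threshold. When −log10 q of at least 3 was required of all peaks, 4400 members remained and the relation turned over: 16.7% of members with naïve SOX2 and 31.5% of those without had BRM, an odds ratio of 0.437 (0.350 to 0.545). A minimum of 3 kept 22.2% of the naïve BRM list and 98.4% of the naïve SOX2 list, and it shortened the BAF lists too. The cause of the reversal was not tested.

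**Figure D2:**
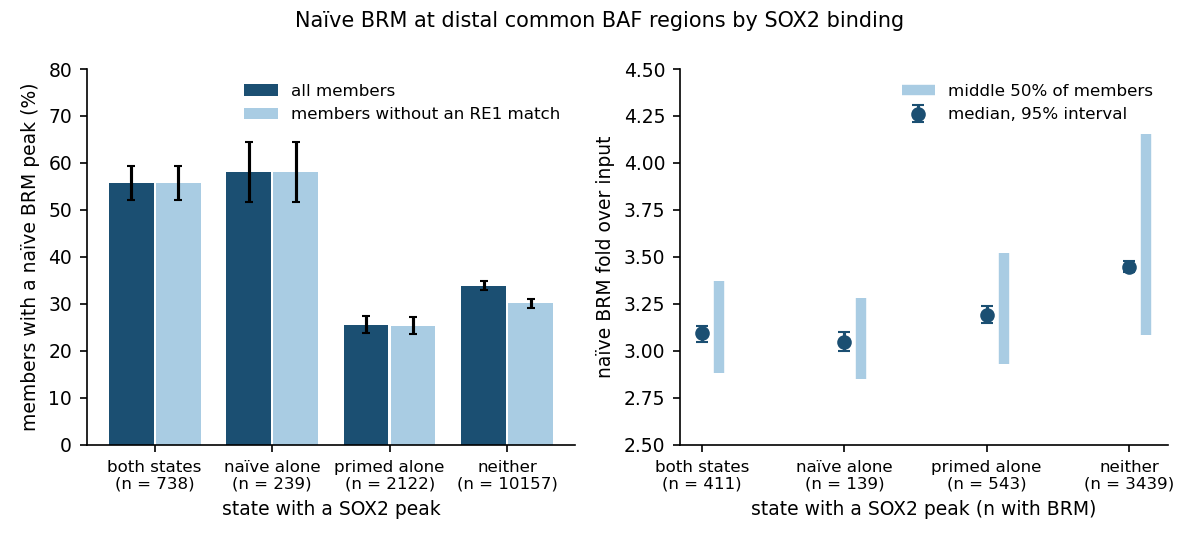
Left, share of distal common BAF regions with a naïve BRM peak (y axis, %) by the state in which SOX2 had a peak, over all members and over members without an RE1 match, with exact 95% intervals; right, the fold over input of those BRM peaks, as medians with 95% intervals and the middle 50% of members. BRM was called most often where naïve SOX2 was present, but with the lowest median folds, for which no allowance for width or RE1 was made.

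The strongest BRM peaks lay at narrow members with little SOX2. BRM-bound members were divided into 5 groups by BRM fold, and the highest group (907 members, fold 4.15 to 11.4) had a median width of 450 bp, against 1350 bp in the lowest group. Naïve SOX2 was at 1.87% of them and primed SOX2 at 4.52%, against 21.1% and 32.0% in the lowest group. The odds ratios were 0.0715 (0.0431 to 0.119) and 0.101 (0.0714 to 0.142), and within width groups 0.208 (0.124 to 0.349) and 0.315 (0.217 to 0.457). Among all 8-letter words in their central 200 bp, that with the largest ratio was GGTGCTGA, in 27.8% of the highest group and 2.28% of the lower 3 groups, followed by GTGCTGAA and AGCTGTCC. These are pieces of RE1. An RE1 match was therefore defined, after these words were seen, as TCAGCACC followed 2 bases later by GGACAGC on either strand, with up to 2 mismatches in the 15 letters.

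RE1 matches lay in the central 200 bp of 715 members (5.39%, 5.02 to 5.79%), against 0.106% of windows of that length 2 kb to either side. The odds ratio was 53.9 (36.9 to 78.7), and 42.8 (29.4 to 62.2) within groups of like GC content. Because the words came from such windows of BRM-bound members, these values describe the element and do not test it. Distal naïve-only regions had a match in 1.29% of cases, promoter common regions in 0.779% and distal primed-only regions in 0.131%. Since windows were set at region midpoints, an element off centre in a wide region was not counted. In the group of highest naïve BRM fold 42.7% of members (387 of 907) had a match, against 1.21% in the lowest group. The share was 48 of the 100 members of highest BRM fold.

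The same gradient was seen in each list that chose the members, as a description. Between the lowest and highest of 5 groups by fold the RE1 share went from 0.985% to 23.4% for naïve BRG1, from 0.262% to 25.1% for naïve BAF155, from 0.813% to 31.6% for primed BRG1 and from 0.756% to 17.2% for primed BAF155. In each list the step to the highest group was the largest. RE1 members were narrow, with a median of 371 bp against 845 bp for the others, and 57.5% had a primed BRG1 peak against 31.1%.

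**Figure D3:**
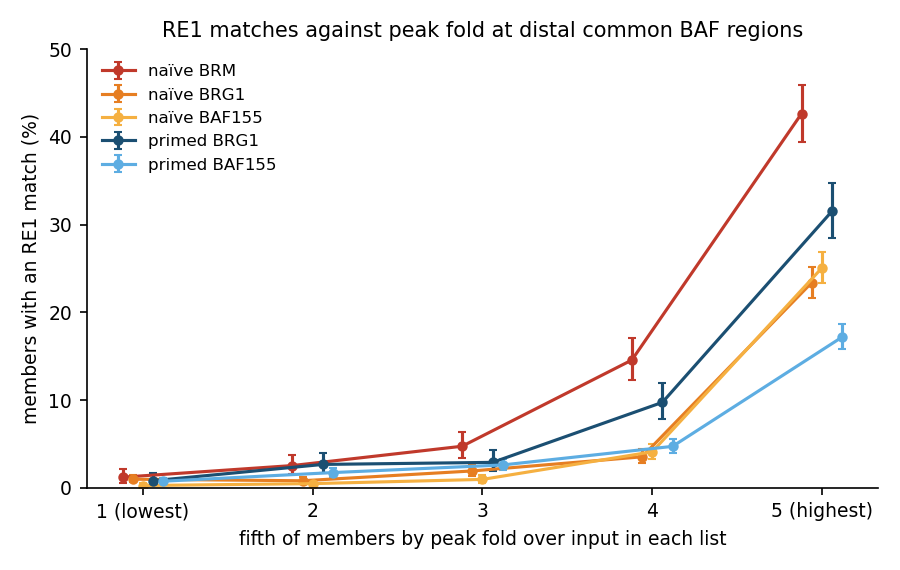
Share of distal common BAF regions with an RE1 match (y axis, %) in 5 equal groups by peak fold over input (x axis, lowest to highest), separately for the 5 lists named; error bars are exact 95% intervals. The share reached 42.7% in the highest group of naïve BRM, from 1.21% in the lowest.

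Readouts that the choice of members did not use also set the RE1 members apart. A naïve BRM peak was called at 596 of 715 (83.4%), against 31.4% of the other members, an odds ratio of 10.9 (8.96 to 13.4) and of 21.8 (17.5 to 27.2) within width groups. The median BRM fold was 4.52 (4.42 to 4.63) with and 3.27 (3.25 to 3.29) without a match. Since the element was found in strongly BRM-bound members, these BRM values describe it and do not test it. SOX2 peaks did not enter the word search, but the BRM fold groups compared there already differed in SOX2. Naïve SOX2 was at 1.87% of the highest group and 21.1% of the lowest, so the SOX2 shares too are a description. No RE1 member had a naïve SOX2 peak, which allows a share of up to 0.420% (3 counts of 715), against 7.79% of the others. In the narrowest of 4 groups by width, 0 of 613 RE1 members and 42 of 2701 others (1.55%) had one. A primed SOX2 peak lay at 6 RE1 members (0.839%), against 22.8% of the others, an odds ratio of 0.0287 (0.0128 to 0.0642), or 0.0758 (0.0335 to 0.171) within width groups. At the peaks themselves, 43.8% of the 100 bp windows centred on BRM midpoints of the highest group held a match, and 0% of those 500 bp to either side.

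The RE1 members of highest BRM fold lay nearest MED27 (BRM fold 11.4), a Mediator subunit gene, DPP6 (10.7), which encodes an auxiliary subunit of potassium channels, S100A7A (10.7) and PRR23E (9.05). Next were members near GRIK3 (8.97), a kainate receptor gene, AIPL1 (8.47), a photoreceptor chaperone gene, UNC5A (8.44), a netrin receptor gene, PLCE1 (8.34), RPS19BP1 (8.25) and CIITA (8.15). The member near MED27 (chr9:132114114-132114580, 467 bp, intergenic) had folds of 10.8 for naïve BRG1, 11.5 for naïve BAF155, 8.22 for primed BRG1 and 10.4 for primed BAF155, and its sequence above matched all 15 letters. The GRIK3 member had 10.8, 9.51, 8.33 and 10.9 in the same order. Of these 10 members, 9 had peaks of all 4 BAF lists, the exception being that near PRR23E, which lacked primed BRG1. Distances to the named genes varied from 3.23 kb for DPP6 to 131 kb for AIPL1, so the nearest gene is a position and not a target. The 5 highest BRM folds over all members also included those near KBTBD8 (10.1) and TAFA4 (9.88), which had no RE1 match counted.

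The relation of BRM to width and to SOX2 was also taken without RE1 members. In the narrowest of 4 groups of members by width (172 to 480 bp) 18.5% had an RE1 match and 30.4% a BRM peak, and without RE1 members the BRM share was 18.8%. In the wider groups it was then 22.5%, 30.8% and 51.0%. With RE1 members left out, BRM was at 30.2% of members with no SOX2 and at 25.4% of those with primed SOX2 alone. The odds ratio of BRM with against without naïve SOX2 was then 3.11 (2.72 to 3.55), and at −log10 q of at least 3 it was 0.650 (0.518 to 0.815).

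Of the 12 motifs searched in the central 200 bp, 11 were more frequent at the members than 2 kb away, with intervals above 1. The OCT4-SOX2 composite element was in 2.07% of members and 0.245% of windows 2 kb away, an odds ratio of 8.62 (6.57 to 11.3). CTCF was in 7.37% and 1.60% (4.88, 4.35 to 5.48). The octamer ATGCAAAT bound by OCT4 was in 3.82% and 1.32%, and the SOX word (CATTGT or CTTTGT) in 26.1% and 22.6%. The shares were 12.04% and 4.46% for KLF (GGGNGNGGC), 10.9% and 5.14% for TFAP2 (GCCNNNGGC), 9.60% and 5.40% for ZIC (CCTGCTG), 5.20% and 2.60% for TEAD (ACATTCC), and 8.67% and 5.99% for AP-1 (TGANTCA). ETS (CCGGAAG) and GRHL (AACNGGTT) words were rare, at 1.59% and 1.55% of members. The interval for the NR5A/ESRR word TCAAGGTCA, in 0.241% of members and 0.336% of windows 2 kb away, included 1. Both strands were searched, the SOX and octamer words are parts of the composite element and overlap its matches, and a match is a run of letters, not a bound site.

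**Figure D4:**
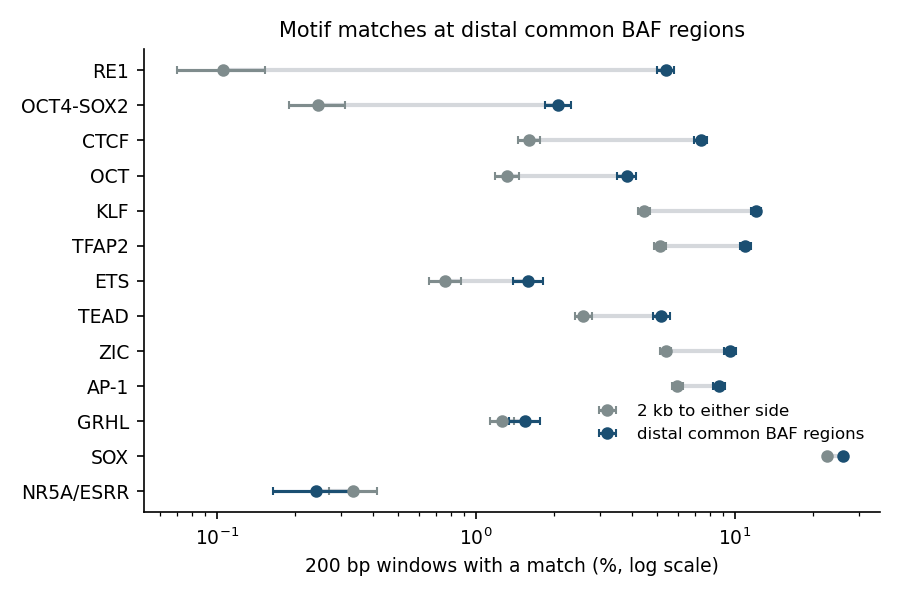
Share of 200 bp windows with a motif match (x axis, %, log scale) at distal common BAF regions and 2 kb to either side, for the 12 motifs searched and RE1, ordered by the ratio of the shares; error bars are exact 95% intervals. RE1 (5.39% against 0.106%) and OCT4-SOX2 (2.07% against 0.245%) had the largest ratios. RE1 was defined after words in the central windows of BRM-bound members were seen, so its ratio is a description.

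For SOX and ZIC words the members lay between the state-specific distal classes. SOX words were at 26.1% of members, 23.2% of distal naïve-only and 36.5% of distal primed-only regions, and ZIC words at 9.60%, 6.87% and 13.8%. KLF words were at 12.04%, 11.1% and 4.86%, highest at the members. OCT4-SOX2 matches were at 2.07%, 0.977% and 2.11%, so distal primed-only regions had them about as often as the members. The odds ratio against primed-only regions was 0.982 (0.848 to 1.14), and 1.31 (1.13 to 1.52) within groups of like GC content. Within groups of like GC content the KLF odds ratio against naïve-only regions went from 1.09 to 0.851 (0.796 to 0.909), and that of CTCF against primed-only regions from 1.04 to 0.704 (0.647 to 0.768), so both depended on base composition.

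OCT4-SOX2 matches followed SOX2, and were more frequent with SOX2 in both states than with primed SOX2 alone. They were at 7.99% (6.14 to 10.2%) of members with SOX2 in both states, 3.86% of those with primed SOX2 alone and 1.21% of those with none. With naïve SOX2 alone the share was 4.60% (2.32 to 8.09%), an interval that overlaps that of both states. The odds ratio for any SOX2 against none was 4.21 (3.31 to 5.36), and 2.77 (2.18 to 3.53) within groups of like GC content. Of the 275 members with a match, 25.5% had naïve and 51.3% primed SOX2. In 100 bp windows centred on the primed SOX2 summit, the match share was 18.6% where both states had SOX2 and 7.63% where primed SOX2 was alone, and it was under 1% at 500 bp. Within 200 bp windows at the summits, 14.2% of primed SOX2 peaks in members and 6.69% of those in distal primed-only regions held a match. The share was 6.35% in promoter common regions. In distal naïve-only regions it was 18.1% (33 of 182, 12.8 to 24.5%), an interval that includes the share in members. For naïve SOX2 the shares were 21.6% in members and 15.2% in distal naïve-only regions. They were 17.2% (11.9 to 23.7%) in promoter common regions and 8 of 42 peaks (8.60 to 34.1%) in distal primed-only regions. Both intervals include the share in members.

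**Figure D5:**
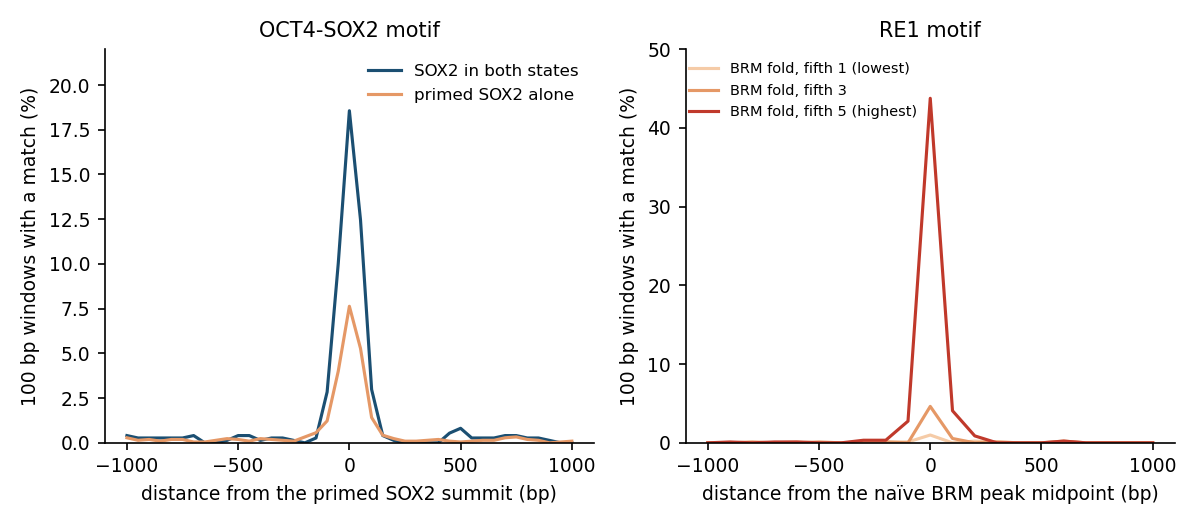
Left, share of 100 bp windows with an OCT4-SOX2 match (y axis, %) against distance from the primed SOX2 summit (x axis, bp) at members with SOX2 in both states and with primed SOX2 alone; right, share with an RE1 match against distance from the midpoint of the naïve BRM peak, for the lowest, middle and highest of 5 groups by BRM fold. Both motifs were concentrated at the centre, at 18.6% and 7.63% on the left and 43.8% in the highest group on the right.

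A CTCF match lay in 977 members, which were narrow, with a median width of 415 bp. Naïve SOX2 was at 0.614% of them against 7.91% of the other members, and primed SOX2 at 6.45% against 22.8%. Within width groups the odds ratios were nearer 1, at 0.144 (0.0641 to 0.324) for naïve and 0.415 (0.316 to 0.544) for primed SOX2. For a SOX2 peak of any state it was 0.217 (0.168 to 0.280), and 0.338 (0.261 to 0.438) within groups of like GC content. BRM was at 24.9% against 34.9% (odds ratio 0.617, 0.531 to 0.716), or 0.736 (0.631 to 0.859) within width groups. Within groups of like GC content the BRM odds ratio was 0.576 (0.495 to 0.670), with RE1 members included. With RE1 members left out, the BRM odds ratio within width groups was 1.04 (0.879 to 1.22), so no difference in BRM was detectable there. The BRM fold had medians of 3.41 (3.33 to 3.51) with and 3.35 (3.33 to 3.37) without a CTCF match.

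SOX2 shares were higher far from gene starts, and BRM shares were not. Primed SOX2 was at 17.8% of members 1 to 5 kb from a start, 21.0% at 5 to 20 kb, 25.4% at 20 to 100 kb and 39.9% beyond 100 kb, and naïve SOX2 went from 6.09% to 12.1% over the same range. BRM was at 34.7%, 34.2%, 33.9% and 29.3%, with overlapping intervals for all 4.

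Genes of 6 lists were examined for a member within 20 kb of a start, which 31.7% of all protein-coding genes had. A gene with many annotated starts covers more sequence and has a higher chance of a member. In the core pluripotency list 15 of 19 genes had a member, 22 in all, of which 17 had primed SOX2, 9 naïve SOX2 and 14 naïve BRM. Over all members these shares were 21.6%, 7.37% and 34.2%. DPPA4, L1TD1, LIN28B, PRDM14, SALL4, SOX2 and TCF7L1 had 2 members each, and POU5F1, NANOG, TDGF1 and DPPA2 had none. In the list of lineage regulators, which are mostly silent in pluripotent cells, 13 of 15 genes had a member, led by CDX2 with 4 and GATA4, HAND1 and MSX2 with 3. Of their 24 members, 6 had primed SOX2, 3 naïve SOX2 and 6 naïve BRM, counts near the shares over all members.

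The FGF and NODAL signalling list had members at 12 of 18 genes, with 5 at SMAD7, an inhibitor of the pathway, 4 at FGFR2 and 3 each at ETV4 and NODAL. Naïve state genes had members at 9 of 16, with 5 at TBX3 and 4 at KLF5, both transcription factors, and 1 at each of the other 7. Primed state genes had members at 9 of 15, with 2 each at OTX2, SALL1, SALL2 and SOX3. BAF subunit genes had members at 15 of 28, with 4 at BICRA, a subunit of the non-canonical complex, and 2 each at BCL7C and DPF3. These counts describe lists that were drawn up with earlier results of the same data known.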

How the data were processed

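ChIP-seq of BRG1, BAF155, BRM and SOX2 in naïve and primed WIBR3 hESCs was deposited as 10 peak lists, and the 4 input samples were not used. Per the study's methods the authors trimmed reads with trim_galore, mapped them to hg38 with bowtie2 (2.3.4 per the labels), removed duplicates with samtools (0.1.19) or PICARD and called peaks against input with MACS2, as broad peaks for BAF subunits and narrow peaks for SOX2. BAF and SOX2 libraries differed in facility, sequencer and read layout. In the deposited lists each peak has coordinates, a score, its fold over input as a ratio, and p-value and q-value as −log10, except for primed BRM and the later SOX2 list in either state, which hold coordinates only. Read totals, and so the depth of each library, were not used here, and the intervals cover counting error over regions only.

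Overlaps used bedtools 2.31.1 with at least 25% of either region covered, and starts came from GENCODE release 44. Shares carry exact Clopper-Pearson 95% intervals and odds ratios Woolf intervals, with 0.5 added where a count was 0. Mantel-Haenszel values were taken within 10 groups of width or GC content. Motifs were searched in 200 bp windows, OCT4-SOX2 with up to 2 mismatches and CTCF with up to 1. Scripts were tested on simulated data. Named members are the 5 of highest fold per list, the 4 genes per list with most members (ties kept), and the 10 RE1 members of highest BRM fold. Members, motifs and gene lists were chosen with earlier results of these data known, and RE1 after the BRM folds were seen. The sequence of 1 of the 4 RE1 members of highest BRM fold is not reported here.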

Additional observations from a re-analysis of the deposited data

Results flagged for a closer look

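Primed BRM was outside the comparisons above because its list held 167 peaks. It had a peak at 10 distal common BAF regions (0.0754%, exact interval 0.0362 to 0.139%), above the 3 that a count of 0 allows, and at 0.0385% of all BAF regions. Of the 10 members, 5 lay on chromosome 21 between positions 8219833 and 8442496, with widths of 248 to 353 bp and folds of 1.58 to 2.89 for primed BAF155. The other 5 lay nearest ID3, NFIA, SHCBP1, KPNA2 and C8orf58, and 1 of the 10, near C8orf58, had primed SOX2. None of the 10 had naïve SOX2.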

How the results depend on the processing

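No paired analysis was possible because each result comes from 1 list per group and no test between replicates. Leaving out either SOX2 list of a state changed nothing, since the coordinates are identical: log2 odds ratios stayed at 2.48 for naïve SOX2 against distal naïve-only regions, 0.74 for primed SOX2 against distal primed-only regions, and 1.42 and -0.068 for naïve BRM with against without naïve and primed SOX2. The alternatives with the primed SOX2 list shortened to the naïve length, those without RE1 matches, and the width groups for CTCF matches and BRM fold groups, were chosen after seeing the data.

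The number of members was 6885 with 50% of both regions covered, 4400 with −log10 q of at least 3 and 6287 with BAF folds of at least 3. The odds ratios of naïve BRM against distal naïve-only regions (1.70 to 3.27), against promoter common regions (1.09 to 2.06) and of naïve SOX2 against distal naïve-only regions (2.76 to 6.05) kept their direction with intervals above 1 in the 11 alternatives run for each, and 10 or 11 motifs stayed more frequent than 2 kb away.

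All further values are log2 odds ratios, and the cause of a change was not tested. Primed SOX2 against distal primed-only regions was 0.041 at −log10 q of at least 3, -0.43 within width groups and -0.17 with the shortened list within width groups. Naïve BRM with against without naïve SOX2 was -1.20 at −log10 q of at least 3, and -0.62 there without RE1 members. Naïve BRM with against without primed SOX2 took either sign. It was 0.058 and 0.074 with 25% and 50% of both regions covered, 0.0096 with protein-coding starts only, 0.0051 within GC groups, 0.36 with the shortened list and 0.16 without RE1 regions. It was -1.72 at −log10 q of at least 3, -1.16 there without RE1 members, -0.43 with BAF folds of at least 3, -0.20 beyond 5 kb, -0.21 with regions of 500 bp and -0.52 within width groups. Naïve BRM with against without a CTCF match was 0.053 within width groups without RE1 members.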
